A study of Mus musculus with 12 samples.

Results

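The Zfp-named genes are the mouse genes whose symbol is Zfp and a number, and most of them encode proteins with C2H2 zinc fingers. In such a finger a pair of cysteines and a pair of histidines hold a zinc ion, and a short helix of the finger reads a few bases of DNA. Proteins with many fingers in a row can bind long DNA motifs, and those with a KRAB domain recruit the corepressor Trim28 (KAP1) and with it silencing marks, in particular at transposable elements. The class also holds proteins with a single finger or none, some of which bind RNA or corepressors. Members were taken by name and level only, as the protein-coding genes named Zfp and digits, without Zfp36 (a CCCH-type mRNA decay factor), with a mean raw count of at least 100 over the 12 libraries. Of 364 such genes in the count table, 170 lay under that mean, 26 of them with no count at all, and 194 were members. All 194 were among the 12386 genes tested, of 53379 listed.

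The libraries came from bone marrow-derived macrophages (BMDMs) of 4 C57Bl/6J mice, grown in medium conditioned by L929 cells. Cells of each mouse gave 1 untreated library, 1 library after 1 h and 1 library after 4 h with 1 μM fenoterol, an agonist of the β2-adrenergic receptor (B2AR), which raises cAMP. The study used male mice, and the medium was not changed at stimulation. The groups therefore differ by label in fenoterol and its time only, the labels do not say when the untreated cells were lysed, and no vehicle group was analysed here. Raw counts per library summed to between 14580533 and 24153284. The cAMP-induced receptor gene Nr4a1, used as a check of the labels, rose in the cells of all 4 mice at 1 h, by 5.16 ± 0.18 (log2, SE). All 8 macrophage markers examined were present, with summed CPM (counts scaled to the same library total) of 38610 to 40208 without fenoterol, 35991 to 41418 with it for 1 h and 37028 to 41007 for 4 h. B cell markers summed to at most 0.488 CPM in any library and erythroid markers to at most 0.152, with 3 of the 4 erythroid markers at 0 throughout. Dendritic cell markers summed to at most 1.91 CPM and mast cell or basophil markers to at most 0.951. The T cell, neutrophil and stroma lists lay at 22.2 to 38.9, 17.8 to 34.6 and 21.4 to 67.0, with groups that overlapped. Only 1 of 4 T cell, 3 of 6 neutrophil and 3 of 4 stroma markers had a mean of at least 1 CPM. In such bulk samples, fewer cells of a type and less RNA per cell cannot be told apart.

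The name holds for the coding sequences of nearly all members: 191 of the 194 members had at least 1 match to the C2H2 finger pattern in their longest GENCODE M21 coding sequence, with a median of 10 fingers and a maximum of 40. Zfp330, Zfp703 and Zfp839 had none, and 8 members had exactly 1. A KRAB A box was found in 90 members and a SCAN box, a domain by which such proteins pair, in 3. To show what the class has in common, the coding bases of a single finger, linker included, are given for a member that fell at both times (Zfp715), for the strongest early riser (Zfp667), for a steady riser (Zfp263) and for a late riser (Zfp52). Capitals mark the codons of the 2 cysteines and 2 histidines.
Zfp715: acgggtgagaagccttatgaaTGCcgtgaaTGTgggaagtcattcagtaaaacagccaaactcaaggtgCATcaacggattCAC
Zfp667: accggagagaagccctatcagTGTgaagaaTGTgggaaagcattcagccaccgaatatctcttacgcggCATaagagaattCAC
Zfp263: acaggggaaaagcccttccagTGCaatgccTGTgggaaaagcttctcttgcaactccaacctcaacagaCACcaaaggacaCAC
Zfp52: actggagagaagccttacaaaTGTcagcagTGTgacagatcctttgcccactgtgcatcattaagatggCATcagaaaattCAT
On GRCm38 these 84 bases lie in coding exons at chr7:43299065-43299148 (minus strand), chr7:6305727-6305810 (plus), chr16:3749191-3749274 (plus) and chr17:21560684-21560767 (plus). They were identical at 40 to 54 of the 84 positions in the 6 pairs, the fewest between Zfp263 and Zfp52. Despite this likeness, stretches of 50 bases, the read length, were rarely shared: only 12 members shared over 10% of theirs with transcripts of other genes.

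The question put to the class was whether its genes moved together when BMDMs were given fenoterol. At 1 h, the Zfp-named genes were on the whole lower: 63 of 194 fell (32.5%) and 14 rose (7.22%) at an adjusted p under 0.05 (edgeR quasi-likelihood test, Benjamini-Hochberg over all genes tested). Over all genes tested, 10.1% fell and 10.0% rose. Among the 9093 other protein-coding genes with a mean raw count of at least 100, 11.3% fell and 11.7% rose. The median log2 fold change of the members was -0.19, against 0.00 in those other genes, and 152 members (78.4%) had a value below 0, against 49.1% of the other genes. The shift was modest for each gene: the middle values, from the 25th to the 75th percentile, ran from -0.34 to -0.03, with a median SE of 0.10 for a single member. No member was down by 2-fold or more, and the lowest estimate was -0.77. The few risers went farther: 4 members rose by at least 2-fold, among the 14 that rose.

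**Figure D1:**
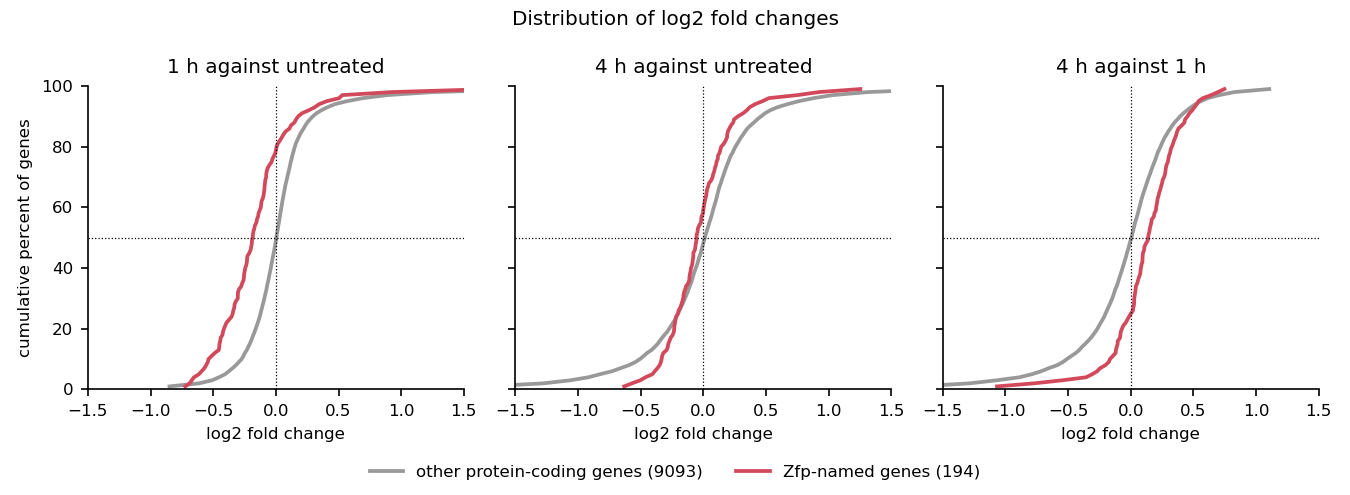
Cumulative percent of genes (y axis) by log2 fold change (x axis, values beyond 1.5 not shown) for the 194 Zfp-named genes (red) and the 9093 other protein-coding genes of the same minimum count (grey), one panel per comparison, drawn from the 1st to the 99th percentile. At 1 h the red curve crosses 50% at -0.19 while the grey curve crosses at 0.00, at 4 h against untreated the crossings are at -0.05 and 0.01, and from 1 h to 4 h at 0.14 and 0.01.

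Because the members have lower counts than other genes (a median of the mean raw count of 324 against 812), the comparison was repeated within ranges of count. Of the 91 members with a mean raw count of 100 to 300, 23 fell and 4 rose at 1 h, with a median log2 fold change of -0.22. Of 1904 other genes in that range 9.24% fell and 6.78% rose, with a median of -0.03. In the range of 300 to 1000, 33 of 80 members fell (41.2%) and 7 rose, with a median of -0.19. Of 3280 other genes there 12.1% fell and 9.94% rose, with a median of -0.01. Between 1000 and 3000, 6 of 20 members fell and 2 rose, with a median of -0.14. Of 2665 other genes there 12.3% fell and 14.2% rose, with a median of 0.02. The 3 members over 3000 were Zfp106, which did not pass at 1 h, Zfp710, which fell, and Zfp516, which rose. The lower level of the class at 1 h was thus present in each range that held at least 20 members. It was also present in each range of GC content: the medians were -0.18 in the 66 members under 42%, -0.16 in the 65 from 42% to 50% and -0.20 in the 63 at 50% or over, against 0.02, 0.01 and -0.01 in other genes.

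**Figure D2:**
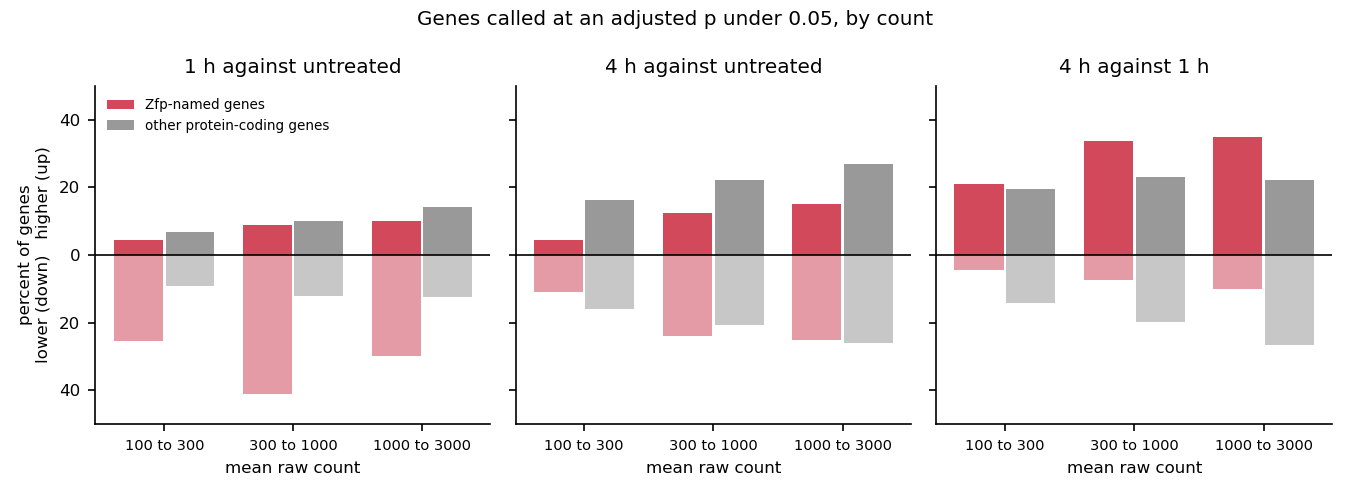
Percent of genes higher (bars up) and lower (bars down, lighter) at an adjusted p under 0.05, by range of mean raw count, for Zfp-named genes (red, 91, 80 and 20 genes) and other protein-coding genes (grey, 1904, 3280 and 2665 genes); the 3 members over 3000 are not drawn. At 1 h the red bars reach 25.3%, 41.2% and 30.0% downward against 9.24%, 12.1% and 12.3% in grey.

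The shift was seen in the cells of every mouse. Within mouse 1, 2, 3 and 4, the median log2 difference of the members at 1 h was -0.21, -0.16, -0.16 and -0.20, and 150, 139, 140 and 142 of the 194 were lower. In the other protein-coding genes, the same medians lay between -0.00 and 0.01. In all 4 mice, 99 members were lower and 21 were higher. Among the other genes of the same minimum count, 24.2% were lower in all 4 mice and 24.7% were higher.

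The members' share of all counts, which needs no model, was also lower at 1 h. It was 0.541%, 0.549%, 0.534% and 0.547% in untreated BMDMs of mouse 1 to 4, 0.476%, 0.5003%, 0.497% and 0.497% at 1 h, and 0.536%, 0.588%, 0.556% and 0.575% at 4 h. Every 1 h library was below every untreated library, and the 4 h libraries overlapped the untreated ones. At 4 h the share was above that of the untreated library in mice 2, 3 and 4, whereas the median log2 difference of the members was below 0 in every mouse. The scaling factors of the 1 h libraries (TMM, 0.953 to 0.974) also differed from those of untreated (1.00 to 1.02) and 4 h libraries (1.02 to 1.04), and their part in the shares was not tested.

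**Figure D3:**
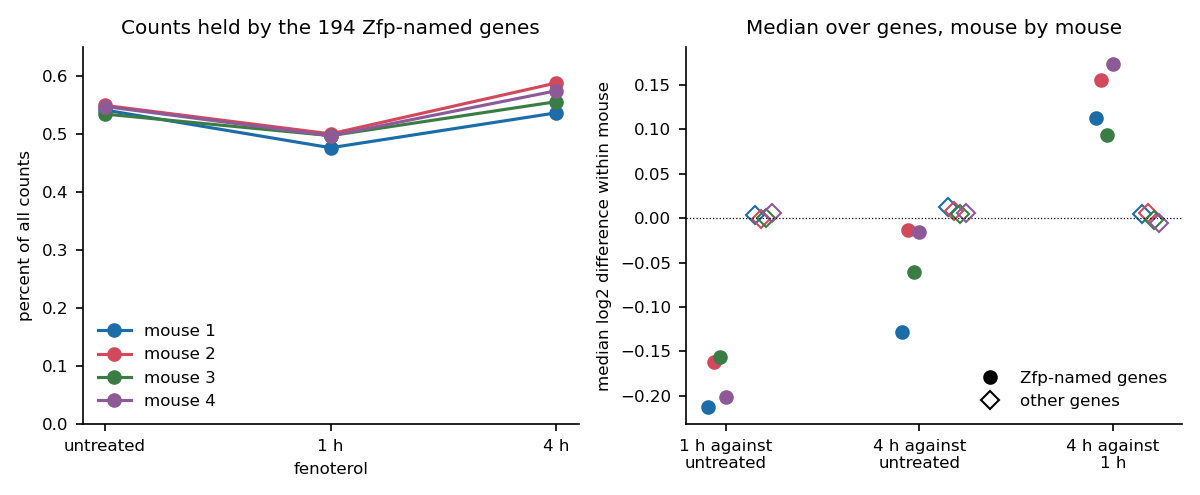
Left, percent of all counts held by the 194 Zfp-named genes in each library (y axis from 0), 1 line per mouse; the 1 h points (0.476% to 0.5003%) lie under all untreated points (0.534% to 0.549%). Right, the median log2 difference within each mouse over the Zfp-named genes (filled) and over other protein-coding genes of the same minimum count (open); the filled points lie at -0.21 to -0.16 at 1 h, at -0.13 to -0.01 at 4 h and at 0.09 to 0.17 from 1 h to 4 h.

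At 4 h the class was closer to its untreated level, and its members were more mixed. Against untreated, 35 members were lower (18.0%) and 19 higher (9.79%), with a median log2 fold change of -0.05, or -0.03 without the 4 h library of mouse 1. Both shares were below those of all genes tested, where 20.4% were lower and 19.7% higher, and of the other genes of the same minimum count, where 23.2% were lower and 23.0% higher. The direct comparison of 4 h with 1 h ran the other way from that at 1 h: 55 members were higher (28.4%) and 12 lower (6.19%), with a median of 0.14. Over all genes tested, 18.7% were higher and 19.8% lower in this comparison, and in the other genes of the same minimum count 21.3% and 23.1%. Both comparisons with untreated use the same untreated libraries, and both comparisons with 1 h the same 1 h libraries, so they are not independent of each other. When counts were scaled by library size alone, the median of all genes moved by -0.07 at 1 h and by 0.09 from 1 h to 4 h. The members then stood at 81 lower and 12 higher at 1 h, and at 83 higher and 9 lower from 1 h to 4 h. Shares of all genes tested under that scaling are not given here, so these counts have no background beside them.

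The strongest early riser was Zfp667, a KRAB protein with 14 fingers, at chr7:6286579-6307883 (GRCm38, plus strand). Its normalized counts were 77.9, 79.0, 79.0 and 74.2 in untreated BMDMs, 448, 467, 407 and 328 at 1 h and 107, 149, 124 and 132 at 4 h, for mouse 1 to 4. The groups did not overlap, and the 4 h values lay between the other groups. Its log2 fold change was 2.41 ± 0.13 (SE) at 1 h (edgeR adjusted p = 4.17e-09) and 0.73 ± 0.14 at 4 h (adjusted p = 0.000581).

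Zfp821, at chr8:109705546-109724932 and with 2 fingers, rose by 1.76 ± 0.09 at 1 h (edgeR adjusted p = 1.41e-09) and was still higher by 1.22 ± 0.09 at 4 h (adjusted p = 5.11e-08). Its counts were 271, 283, 244 and 289 untreated, 874, 1049, 828 and 939 at 1 h and 595, 656, 581 and 689 at 4 h, again without overlap between groups. Zfp703, a corepressor of the NET family without a canonical finger match, lies at chr8:26977325-26981461. Its counts were 1096, 1318, 1155 and 1348 untreated, 4108, 4038, 4184 and 3884 at 1 h and 1645, 1672, 1769 and 1715 at 4 h. All 4 mice showed a sharp rise (log2 1.72 ± 0.07, adjusted p = 7.49e-11) that was largely gone at 4 h (log2 0.47 ± 0.06). Of its exon bases 13.5% are overlapped by an exon of Gm45371 on the opposite strand.

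Zfp516, known as an activator of brown fat genes and a partner of corepressor complexes, rose and stayed high. Its counts were 1694, 1848, 1376 and 1627 untreated, 4028, 4719.8, 3866 and 4029 at 1 h and 4168, 4712, 4144 and 4082 at 4 h. The change on the log2 scale was 1.35 ± 0.09 at 1 h (adjusted p = 2.93e-08) and 1.39 ± 0.09 at 4 h (adjusted p = 1.35e-08), with no overlap between untreated and treated libraries, and the treated groups overlapped each other. Zfp64, by contrast, was high at 1 h only, with 630.4, 685, 688 and 797 against 344, 427, 359.5 and 419.6 untreated and 409, 375, 471 and 417 at 4 h (log2 0.86 ± 0.10, adjusted p = 1.06e-05 at 1 h, and 0.11 ± 0.10, adjusted p = 0.384, at 4 h). The difference between the time points passed the test too (log2 -0.74 ± 0.09, adjusted p = 2.54e-05). Among the other early risers, Zfp326 (part of a complex that couples splicing to transcription), Zfp608, Zfp707, Zfp386 and Zfp263 rose by 0.47 to 0.58 at 1 h. Zfp326 went from 206 to 250.0 to 322 to 388 and back to 224 to 250.3. Zfp263 rose further, from 1903 to 2208 untreated to 2684 to 3144 at 1 h and 3421 to 4346 at 4 h, with no overlap of any of the 3 groups.

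**Figure D4:**
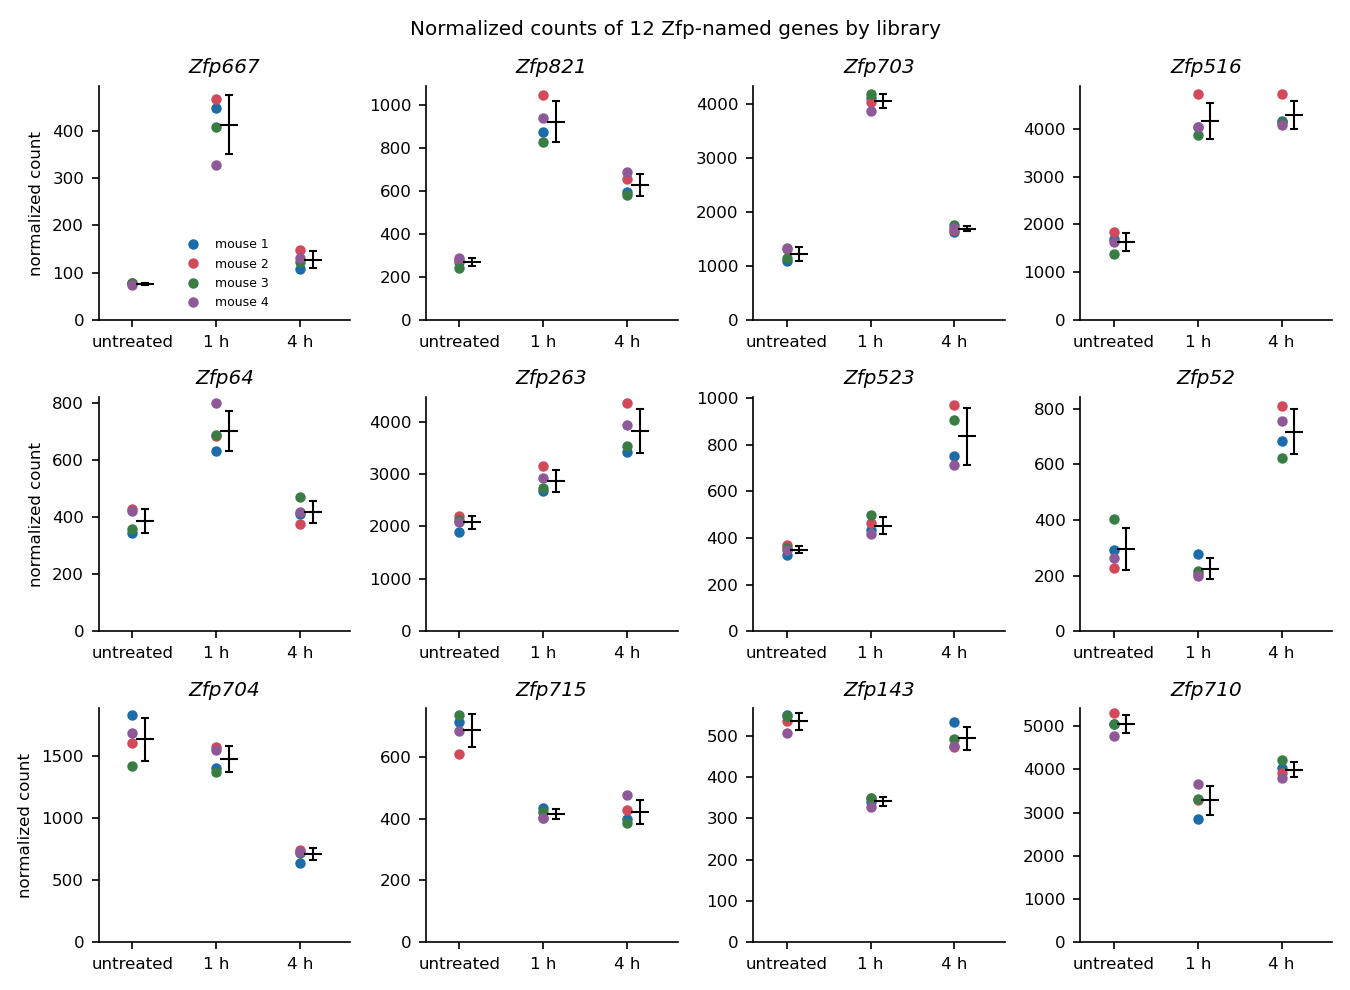
Normalized counts (y axes from 0, each panel with its own scale) of 12 Zfp-named genes by library; points are the mice (4 per group, colours), and black bars are the mean ± SD of each group. Zfp667, Zfp821, Zfp703 and Zfp64 are highest at 1 h, Zfp523, Zfp52 and Zfp263 at 4 h, and Zfp715, Zfp143 and Zfp710 are lower at 1 h than untreated in every mouse.

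The fallers at 1 h were many and differed in size, with Zfp740, for one, passing at -0.20. The 10 with the greatest fall that moved the same way in all 4 mice were Zfp961, Zfp715, Zfp709, Zfp467, Zfp316, Zfp395, Zfp120, Zfp1, Zfp143 and Zfp710, at -0.77 to -0.62. Zfp715, a KRAB gene with 18 fingers at chr7:43296197-43313294 (minus strand), had counts of 710.2, 609, 735 and 683 untreated, 433, 401, 422 and 402 at 1 h and 399, 428, 386 and 474 at 4 h. It fell by 0.73 on the log2 scale at 1 h (SE 0.08, adjusted p = 7.05e-06) and was lower by as much at 4 h (-0.70 ± 0.08, adjusted p = 4.6e-06), and both treated groups lay under all untreated libraries.

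Zfp143, also called Staf, drives snRNA genes and binds many promoters. Its counts were 550.2, 537, 548 and 506 untreated, 339.8, 349, 349.8 and 327 at 1 h and 533, 473, 492 and 476 at 4 h. The spread at 1 h was narrow and all values were under those of the other groups (log2 -0.65 ± 0.06, adjusted p = 2.37e-06), while at 4 h the estimate was -0.12 ± 0.06 (adjusted p = 0.15) and the groups overlapped. Zfp523, the mouse counterpart of human ZNF76 and a close relative of Zfp143, went the other way. Its counts were 329, 369.6, 356 and 349.7 untreated, 434, 465, 497 and 419 at 1 h and 751, 972, 905 and 714 at 4 h (log2 0.37 ± 0.10, adjusted p = 0.0143 at 1 h, and 1.25 ± 0.10, adjusted p = 1.07e-07 at 4 h).

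Zfp467, a regulator of the choice between bone and fat cell fates, went from 588 to 673 untreated to 319 to 409 at 1 h and 453 to 553 at 4 h (log2 -0.72 ± 0.09 and -0.35 ± 0.09). Zfp395, a DNA-binding factor with 1 finger match, had 1925, 2065, 1653 and 2318 untreated and 1170.4, 1113, 1223 and 1459 at 1 h, without overlap (log2 -0.68 ± 0.11, adjusted p = 0.000407). Zfp961 differed in level between mice. Its counts were 221, 277, 176 and 133 untreated and 151, 136, 106 and 78.9 at 1 h, so that the groups overlapped while each mouse fell. Its adjusted p was 0.0406 with an SE of 0.25, and 4.97e-05 with an SE of 0.11 (edgeR) with the mouse as a block. Without the block it was 0.0502 to 0.138 when the untreated library of mouse 1 or 2, the 1 h library of mouse 2, 3 or 4, or the 4 h library of mouse 1 was left out.

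Some members passed the test at 4 h against untreated but not at 1 h. Zfp52, a KRAB gene at chr17:21535539-21562601, had counts of 292, 226, 404 and 264 untreated, 279, 207, 218 and 199 at 1 h and 683, 811, 624 and 755 at 4 h. It did not pass the test at 1 h (log2 -0.40 ± 0.16, adjusted p = 0.106) and rose by 1.27 ± 0.16 at 4 h (adjusted p = 1.19e-05), when every library was above all those of the other groups. The 5 members within 200000 bases of it on chromosome 17, Zfp677, Zfp51, Zfp53, Zfp948 and Zfp760, named here for their position after the values were seen, had log2 fold changes of -0.23 to 0.36 at 4 h, and none passed the test. Zfp704, which has a single finger match, was the only member lower by at least 2-fold at 4 h. Its counts were 1825, 1607, 1416 and 1685 untreated, 1406, 1571, 1368 and 1550.4 at 1 h and 642, 747, 722 and 727 at 4 h (log2 -0.15 ± 0.08, adjusted p = 0.216, then -1.20 ± 0.08, adjusted p = 1.98e-08). Exons of a gene on the opposite strand overlap 16.6% of its exon bases.

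Zfp275, on the X chromosome, changed sign. Its counts were 509, 506, 467 and 486 untreated, 598, 658, 668 and 572 at 1 h and 273, 329, 326 and 346 at 4 h, with no overlap between any groups. It rose by 0.34 ± 0.08 at 1 h (adjusted p = 0.00603) and was below untreated at 4 h (-0.63 ± 0.08, adjusted p = 2.02e-05), and the direct difference was -0.97 ± 0.08 (adjusted p = 3.22e-07). Other members among the greatest falls at 4 h were Zfp90 (-0.57), Zfp622 (-0.57), Zfp524 (-0.49), Zfp709 (-0.48), Zfp316 (-0.45), Zfp945 (-0.41) and Zfp593 (-0.41), as log2 fold changes at 4 h. Zfp709 and Zfp316 were also among the 10 greatest falls at 1 h. Of the 7, Zfp90, Zfp593 and Zfp524 share 79.5%, 77.9% and 46.5% of their exon bases with an exon of another gene, on the opposite strand for Zfp90 and Zfp593, so their counts cannot be assigned with certainty. Some of these calls rested on single libraries when the mouse was not a block: without the untreated library of mouse 4 or the 4 h library of mouse 1 the adjusted p of Zfp316 was 0.0513 or 0.0534, without either of these or the untreated library of mouse 2 that of Zfp593 was 0.0503 to 0.0587, and without the untreated library of mouse 1 or 2 or the 4 h library of mouse 3 or 4 that of Zfp709 was 0.0521 to 0.0848. The log2 fold changes were then -0.39 to -0.38, -0.38 to -0.36 and -0.47 to -0.39, and with all libraries and the mouse as a block the adjusted p was 0.00168, 0.00572 and 0.00151 (edgeR). Further risers at 4 h were Zfp608 (0.85), Zfp719 (0.57), Zfp131 (0.50) and Zfp386 (0.47). From 1 h to 4 h, after Zfp52 and Zfp523, the greatest rises were those of Zfp27 (0.74), Zfp719 (0.71), Zfp933 (0.69), Zfp324 (0.67), Zfp653 (0.63), Zfp60 (0.63), Zfp810 (0.56) and Zfp629 (0.55). The normalized counts of Zfp629 were 677 to 743 untreated, 448 to 532 at 1 h and 698 to 747 at 4 h.

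By level per exon length, the 5 highest members were Zfp703, Zfp263, Zfp106, Zfp710 and Zfp740, at 35.0, 33.0, 31.9, 30.2 and 26.1 RPKM (CPM per kilobase of exon), averaged over the 12 libraries. The median of the 194 members was 3.27 on that scale, against 8.63 in the other genes of the same minimum count. The order differed between groups: in untreated libraries alone Zfp710 was highest at 37.1 RPKM, followed by Zfp106, Zfp740 and Zfp263 at 28.5, 27.3 and 23.4, and Zfp703 came 7th at 18.5, against 61.0 at 1 h. Zfp710 had normalized counts of 5039, 5297, 5043 and 4781 untreated, 2862, 3299, 3308 and 3672 at 1 h and 4024, 3920.3, 4207 and 3806 at 4 h. All its treated libraries were lower than the untreated ones (log2 -0.62 ± 0.07 at 1 h, adjusted p = 7.98e-06, and -0.34 ± 0.07 at 4 h, adjusted p = 0.000943). Zfp740 showed a small but tight dip, from 2667 to 2831 to 2309 to 2452 at 1 h and back to 2651 to 2838 (log2 -0.20 ± 0.04, adjusted p = 0.00436, at 1 h). Zfp106, an RNA-binding protein needed in muscle and motor neurons, was 5407 to 6164 untreated, 5782 to 6731 at 1 h and 6988 to 8251 at 4 h. It rose at 4 h (log2 0.37 ± 0.06, adjusted p = 0.000277), and an exon of Gm26899 on the opposite strand overlaps 26.1% of its exon bases.

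Members with a known job outside, or beyond, sequence-specific repression were read as lists. Of the 10 members tied to RNA or ribosomes, 1 rose (Zfp326) and 2 fell at 1 h, and 1 rose and 2 fell at 4 h, counts near the shares of all genes tested (10.0% higher and 10.1% lower at 1 h, 19.7% and 20.4% at 4 h). The fallers were Zfp346, a double-stranded RNA binding protein (-0.43 ± 0.10, adjusted p = 0.00566), and Zfp830, a splicing factor (-0.24 ± 0.08, adjusted p = 0.0412). At 4 h Zfp106 rose, and the 60S ribosome assembly factors Zfp622 and Zfp593 fell, Zfp622 from 744 to 854 untreated to 463 to 593 (adjusted p = 5.62e-05). The other 7 genes of the list, such as Zfp207 and Zfp598 (a ubiquitin ligase of collided ribosomes), had log2 fold changes of -0.20 to 0.15 at 1 h and did not pass; with the mouse as a block Zfp207 and Zfp622 did (adjusted p = 0.0128 and 0.0406, edgeR), which makes 4 of 10 lower, against 13.7% of all genes tested in that blocked fit. The median of the list at 1 h was -0.12.

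Among 7 of 8 listed transcription factors with known DNA targets that were members, Zfp263 rose at 1 h, and Zfp143, Zfp281 (-0.36 ± 0.08, adjusted p = 0.00764) and Zfp335 (-0.30 ± 0.09, adjusted p = 0.0205) fell. Zfp148, Zfp219 and Zfp384 had estimates of -0.15, -0.20 and -0.19 that did not pass, but with the mouse as a block Zfp384 did (edgeR adjusted p = 0.0377, with 13.7% of all genes tested lower in that fit). The shares of all genes tested were 10.1% lower and 10.0% higher at 1 h without the block. From 1 h to 4 h, 4 of the 7 were higher and none lower, with a median of 0.25, against 18.7% and 19.8% of all genes tested. At 4 h against untreated only Zfp263 passed, upward.

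Of 11 members on the list of corepressor or chromatin partners (15 listed), 3 rose at 1 h (Zfp516, Zfp703 and Zfp608) and 4 fell. Over all genes tested 10.0% rose and 10.1% fell, which is also the background of the signalling list. The 4 were Zfp217, a CoREST partner (-0.57 ± 0.06, adjusted p = 6.78e-06), Zfp592 (-0.30 ± 0.05, adjusted p = 0.000466) and Zfp687 (-0.38 ± 0.07, adjusted p = 0.00109), which bind Zmynd8, and Zfp809, which silences retroviral DNA (-0.30 ± 0.09, adjusted p = 0.0288). Zfp217 had 2546, 2857, 2424 and 2618 untreated, 1629, 1798, 1712 and 1894 at 1 h and 2083, 2252, 2132 and 2193 at 4 h, so that each group was apart from the others. Zfp451, Zfp568, Zfp609 and Zfp644 did not pass at 1 h, with log2 fold changes of -0.13 to 0.16. Of the 6 members on the signalling list (7 listed), Zfp395 and Zfp91, a ubiquitin ligase of the NF-κB-inducing kinase (-0.26 ± 0.08, adjusted p = 0.0272), fell at 1 h. Zfp110 and Zfp369, which bind a neurotrophin receptor, and Zfp692 and Zfp746 had estimates of -0.18 to -0.04 and did not pass. The lists come from background knowledge but were chosen with earlier results of these data known. They are also short, so their counts describe these genes only.

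Members with a KRAB A box and members without it had similar medians at 1 h, and the difference between them was not tested. Of the 90 with the box, 27 fell and 3 rose at 1 h, with a median log2 fold change of -0.20, and of the 104 without it 36 fell and 11 rose, with a median of -0.18, where 10.1% of all genes tested fell and 10.0% rose. By number of fingers, the medians at 1 h were -0.15 in the 33 members with 0 to 4 fingers, -0.13 in the 59 with 5 to 9, -0.19 in the 61 with 10 to 14 and -0.25 in the 41 with 15 or more. In that last group 18 fell and none rose. The 11 members with a single finger or none were mixed, with 3 higher and 2 lower at 1 h and a median of -0.02, and from 1 h to 4 h 5 of them were lower and 3 higher, where 19.8% of all genes tested were lower and 18.7% higher. Across the 194 members, Spearman's rho between finger number and the log2 fold change was -0.19 at 1 h, 0.01 at 4 h and 0.18 from 1 h to 4 h, given as a description, since genes are not replicates and share the libraries.

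**Figure D5:**
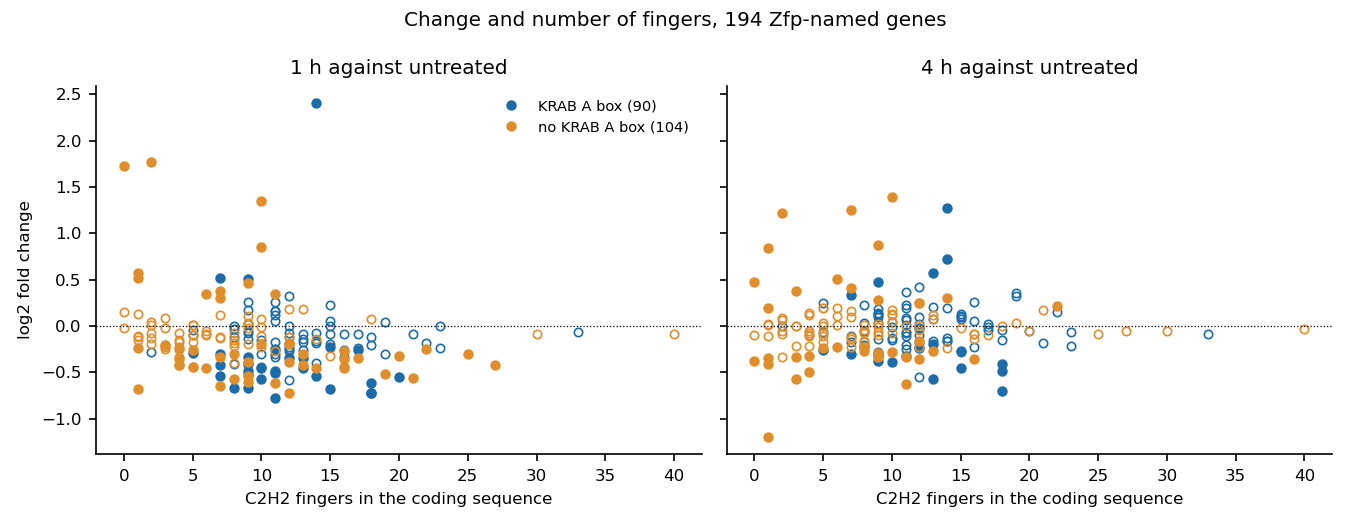
Log2 fold change (y axis) by number of C2H2 fingers (x axis) at 1 h and at 4 h against untreated, for the 90 members with (blue) and the 104 without (orange) a KRAB A box; filled points have an adjusted p under 0.05. At 1 h no member with 15 or more fingers rose, and 18 of these 41 fell.

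The members lay on 19 chromosomes, with 49 on chromosome 7 and 27 on chromosome 17, where tandem copies form clusters. On chromosome 7, 24 of 49 members fell at 1 h (49.0%) and 1, Zfp667, rose, with a median log2 fold change of -0.27 and 93.9% of values below 0. Among the 650 other protein-coding genes of the same minimum count on that chromosome, 12.9% fell and the median was -0.02. On chromosome 17, 1 of 27 members fell and 1 rose at 1 h, with a median of -0.09, and among the 445 other protein-coding genes there 7.64% fell and 11.7% rose. The members there had a median SE of 0.15, against 0.11 on chromosome 7. On the other chromosomes with at least 10 members, 7 of 15 fell on chromosome 8 (46.7%), 4 of 11 on chromosome 5 (36.4%), 4 of 13 on chromosome 6 (30.8%), 3 of 11 on chromosome 13 (27.3%) and 3 of 13 on chromosome 9 (23.1%), where 9.33%, 12.5%, 16%, 10.2% and 12.5% of the other protein-coding genes on these chromosomes fell, so a high share was not particular to chromosome 7. Differences between chromosomes were not tested. Of the 99 members with another member within 200000 bases, 37 fell and 4 rose at 1 h (median -0.23), and of the 95 without such a neighbour 26 fell and 10 rose (median -0.15), against 10.1% lower and 10.0% higher over all genes tested.

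The genes whose products work with KRAB proteins were read as a list of their own. Of 22 tested genes of the KRAB corepressor and heterochromatin list (23 listed), 3 fell (13.6%) and none rose at 1 h, with a median of -0.08, against 10.1% and 10.0% of all genes tested. They were Atf7ip, which keeps the methyltransferase Setdb1 active (-0.67 ± 0.06, adjusted p = 6.37e-07), the remodeller Chd3 (-0.18 ± 0.05, adjusted p = 0.0258) and the heterochromatin protein gene Cbx1 (-0.18 ± 0.05, adjusted p = 0.0291). Trim28 itself had 3100.4 ± 110.2 (mean ± SD, n = 4) normalized counts untreated, 2831 ± 156 at 1 h and 2825 ± 193 at 4 h. Its log2 fold change was -0.13 ± 0.06 at 1 h (adjusted p = 0.147). It was lower in 4 of 4 mice at both times, and with the mouse as a block it passed the test (-0.13 ± 0.04, adjusted p = 0.0382 at 1 h, and -0.14 ± 0.04, adjusted p = 0.0193 at 4 h). With that block 7 of the 22 fell at 1 h, Chd4, Ehmt2 and Morc3 being the others added, against 13.7% of all genes tested lower and 13.3% higher. At 4 h Cbx5 (0.60 ± 0.11), Setdb1 (0.17 ± 0.06) and Pphln1 (0.18 ± 0.05) rose, and Dnmt3a (-1.16 ± 0.08), Atf7ip (-0.43 ± 0.06) and Chd3 (-0.39 ± 0.05) fell. That is 13.6% in each direction, against 19.7% higher and 20.4% lower over all genes tested. With the block 5 rose and 5 fell, against 23.6% and 23.8% of all genes tested in that fit. The fall of the DNA methyltransferase gene Dnmt3a, from 3097 ± 255 to 1389 ± 114, was the greatest on the list.

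Other zinc finger classes of the same minimum count were set beside the Zfp-named genes. The Zscan- and Zkscan-named genes, which also carry C2H2 fingers, had 5 of 14 lower and none higher at 1 h, with a median of -0.15, where 10.1% of all genes tested were lower and 10.0% higher. Of 32 Zbtb-named genes 7 fell and 5 rose (median -0.07), and of 13 Zc3h-named genes, whose fingers bind RNA, 3 fell and 1 rose (median -0.05). The 10 Klf-named genes had a median of 0.18, with 4 higher and 2 lower. No test between these classes was made.

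Promoters were read because fenoterol acts through cAMP, whose factor Creb1 binds the letters TGACGTCA, or the shorter TGACG. RefSeq promoter windows (250 bases before to 50 after the start, GRCm38.p6) were matched for 161 of the 194 members. TGACGTCA was found in 7 of them (4.35%), against 3.72% of 7374 other genes of the same minimum count and 2.03% of all 27025 genes with a window. TGACG, on either strand and including matches inside the longer word, was found in 67 (41.6%), against 37.9% and 23.0%. Of the 7 members with the full word, Zfp523 rose at both times and Zfp335 fell at 1 h, while Zfp266, Zfp367, Zfp426, Zfp868 and Zfp953 passed at neither; with the mouse as a block Zfp426 passed at 1 h (edgeR adjusted p = 0.0193) and Zfp367 at 4 h (0.0128). Of the 67 members with TGACG, 16 fell and 5 rose at 1 h (median -0.12), and of the 94 without it 37 fell and 5 rose (median -0.25); over all genes tested 10.1% fell and 10.0% rose, and the difference between these sets was not tested. A match is a description of letters and not a site. The windows below were chosen after the values were seen, to set the diverging relatives Zfp523 and Zfp143 and the strongest early risers Zfp667 and Zfp821 side by side, with the words in capitals; of a gene with several windows, one that holds the word is shown.
Zfp523: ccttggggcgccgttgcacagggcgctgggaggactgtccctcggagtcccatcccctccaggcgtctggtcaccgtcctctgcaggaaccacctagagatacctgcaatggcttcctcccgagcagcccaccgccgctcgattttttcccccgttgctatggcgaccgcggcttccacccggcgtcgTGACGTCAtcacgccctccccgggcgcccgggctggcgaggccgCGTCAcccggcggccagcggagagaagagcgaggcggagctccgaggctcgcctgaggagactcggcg
Zfp143: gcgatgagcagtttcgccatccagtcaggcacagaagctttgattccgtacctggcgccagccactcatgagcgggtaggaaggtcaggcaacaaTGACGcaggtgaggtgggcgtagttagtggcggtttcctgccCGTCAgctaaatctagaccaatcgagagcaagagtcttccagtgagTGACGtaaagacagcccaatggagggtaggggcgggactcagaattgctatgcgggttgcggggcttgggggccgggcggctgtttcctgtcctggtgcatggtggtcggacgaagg
Zfp667: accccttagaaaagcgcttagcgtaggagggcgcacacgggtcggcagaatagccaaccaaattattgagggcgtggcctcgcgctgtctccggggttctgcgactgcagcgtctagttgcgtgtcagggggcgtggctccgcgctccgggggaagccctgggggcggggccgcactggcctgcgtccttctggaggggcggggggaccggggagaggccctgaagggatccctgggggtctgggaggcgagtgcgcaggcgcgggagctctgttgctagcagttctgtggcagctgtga
Zfp821: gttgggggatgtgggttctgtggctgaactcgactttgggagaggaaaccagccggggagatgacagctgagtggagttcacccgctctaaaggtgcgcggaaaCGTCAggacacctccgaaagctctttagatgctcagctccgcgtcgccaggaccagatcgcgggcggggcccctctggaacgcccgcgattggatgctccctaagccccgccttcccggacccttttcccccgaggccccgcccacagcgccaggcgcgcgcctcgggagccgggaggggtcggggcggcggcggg
They lie at chr17:28176946-28177245, chr7:110061452-110061751, chr7:6286330-6286629 and chr8:109705258-109705557, all on the plus strand. The window of Zfp523 holds the full word at position -62 from the start and 3 matches of TGACG, 2 of them inside the full word. The window of Zfp143, which fell at 1 h, also holds 3 matches of TGACG and no full word, that of Zfp821 holds 1, and that of Zfp667, with the greatest rise, holds none.

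At the lower limit of the class, the members Zfp617, Zfp946 and Zfp772 had mean raw counts of 100.7, 100.8 and 103.8, and log2 fold changes of -0.54, -0.17 and -0.00 at 1 h. The genes just left out, Zfp994, Zfp14 and Zfp595, had mean raw counts of 97.2, 97.9 and 98.2 and log2 fold changes of -0.40, -0.12 and -0.22. Exons of another gene overlap 61 members, 18 of them over more than 10% of their exon bases on the opposite strand, and the 133 members without any overlap gave 42 lower and 10 higher at 1 h, with a median of -0.18. Leaving out the 12 members that share 50-base stretches gave 59 lower and 14 higher of 182, with a median of -0.18, against -0.19 in the whole class. Over all genes tested 10.1% were lower and 10.0% higher at 1 h.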

How the data were processed

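Raw counts per gene were deposited by the authors, made with TopHat2 2.0.11 on GRCm38 and HTSeq 0.8.0 from single-end reads of 50 bases of a stranded mRNA library kit; the strand option and annotation release are not given in the sources used here. Symbols, exon lengths and coding sequences came from GENCODE M21, which matched 53274 of the 53379 gene identifiers. All 12 libraries were fitted with edgeR 4.0.16 in R 4.3.3 (TMM scaling, filterByExpr on the 3 groups, a mean per group, quasi-likelihood test), with Benjamini-Hochberg adjustment over 12386 genes for each comparison and a threshold of 0.05. The study used limma on vsn values. Normalized counts are TMM-scaled CPM at the mean effective library size, and SEs are the log2 fold change over the square root of F. The fit was tested on simulated counts with 200 changed genes. Libraries of 1 mouse deviated together from their group means (r of 0.292 to 0.563 in 12 pairs from the same mouse, and -0.297 to 0.0796 in 36 from different mice), so the mouse number pairs the samples, and a block for it was an alternative, as were RLE or library size scaling, DESeq2 1.42.0, limma-voom, other filters, fits of 2 groups, other thresholds, other choices of members, a GC and length correction, and leaving out each library.

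Fingers were counted as C, 2 to 4 residues, C, 12 residues, H, 3 to 5 residues, H or C in translated coding sequences, in place of the RefSeq proteins first planned; a KRAB or SCAN box that departs from the searched pattern is missed. Named genes were the 10 greatest rises and falls per comparison that passed the test and moved alike in all 4 mice, the 5 highest per kilobase, the genes next to the count limit, and fixed lists. The members and lists were chosen with earlier results of these data known. No member had under 50 counts in any library; counting error weighs most on the members of low count.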

Additional observations from a re-analysis of the deposited data

Results flagged for a closer look

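In groups of 4 libraries, a value was noted when its gap to the nearest other, as a share of the group's range, was over Dixon's critical value. Chance gives about 1 such group in 20, and 7 of the 126 groups examined had one, against 6.3 by chance. The gaps were 0.853 for Zfp593, 0.855 for Zfp622 and 0.866 for Zfp810, each with a low untreated library of mouse 1. They were 0.908 for Zfp316 and 0.886 for Zfp90, with a low 4 h library of mouse 1, and 0.864 for Zfp516, with a high 4 h library of mouse 2. The members' share of counts at 1 h gave 0.859, with a low library of mouse 1.

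The effects at 4 h and at 1 h differed for 67 members by the direct comparison (edgeR quasi-likelihood test), with 28.4% of members higher and 6.19% lower. Over all genes tested 18.7% were higher and 19.8% lower, so a difference as such was not particular to the class. Of the 67, 29 are among the 41 members named by rise, fall or level. Of these 29, the 10 rises and 10 falls from 1 h to 4 h were picked by passing this same comparison. Log2 differences (4 h minus 1 h) below 0 were those of Zfp667 at -1.68, Zfp703 at -1.25, Zfp704 at -1.05, Zfp275 at -0.97, Zfp64 at -0.74, Zfp326 at -0.55, Zfp821 at -0.55, Zfp622 at -0.37, Zfp839 at -0.35 and Zfp945 at -0.29. Differences above 0.6 were those of Zfp52 at 1.67, Zfp523 at 0.88, Zfp27 at 0.74, Zfp719 at 0.71, Zfp933 at 0.69, Zfp324 at 0.67, Zfp653 at 0.63 and Zfp60 at 0.63. The other differences above 0 were those of Zfp810 at 0.56, Zfp629 at 0.55, Zfp143 at 0.53, Zfp263 at 0.41, Zfp467 at 0.37, Zfp120 at 0.34, Zfp395 at 0.34, Zfp608 at 0.33, Zfp106 at 0.29, Zfp710 at 0.28 and Zfp740 at 0.20.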

How the results depend on the processing

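Of 315 alternative values for the counts, medians and shares of the members, 288 kept their direction and stayed within the spread between mice (medians: 1 SD over the 4 mice; shares: 1 SD over the libraries) or within 1.5 times (counts), and none reversed. With a library left out, the median was -0.19 to -0.17 at 1 h, -0.08 to -0.03 at 4 h and 0.11 to 0.16 from 1 h to 4 h, and 51 to 61, 26 to 36 and 10 to 14 members were lower; of these, the median at 4 h moved by over 1.5 times, to -0.03 without the 4 h library of mouse 1, which is less than that SD. Scaling by library size alone moved the median at 1 h to -0.25 and that from 1 h to 4 h to 0.23, with 83 higher, and gave -0.03 at 4 h. At an adjusted p under 0.01, 51 members passed at 1 h (40 lower), 33 at 4 h (18 lower) and 35 were higher from 1 h to 4 h. Shares of all genes tested at that threshold, with library size scaling or at a minimum mean count of 500 are not given here. With a minimum mean count of 500, which leaves 54 members, 24 passed at 1 h (5 higher, 19 lower), 22 at 4 h (9 higher, 13 lower) and 24 from 1 h to 4 h (20 higher, 4 lower, median 0.10), and the shares of counts were 0.351%, 0.327% and 0.372% in untreated, 1 h and 4 h libraries. With a minimum of 50 the shares were 0.563% untreated and 0.508% at 1 h. Among the 133 members without overlapped exons, 11 were higher at 4 h, and 42 passed from 1 h to 4 h, 32 of them higher. In these last cases fewer or more genes are counted by construction. The replicate block (mouse number) lost no call: 77, 54 and 67 members passed with and without it in the 3 comparisons, and 13, 13 and 14 more passed with it, without a change of sign. With the GC and length correction added to the replicate block, 29 members were higher at 4 h. Of the named members' 1320 alternative values, 32 fell short of the threshold and none reversed; 21 of the 32 came from leaving out single libraries, for Zfp961 at 1 h, Zfp316, Zfp593 and Zfp709 at 4 h and Zfp945 from 1 h to 4 h. Zfp945 (adjusted p of 0.0524 to 0.115 without the 1 h library of mouse 2 or 3 or any 4 h library) also fell short with library size scaling, no filter or 2 groups only, and Zfp961 with limma-voom (0.0542); the cause was not tested. Depth limits the members of low count most, with a median SE of 0.13 from 100 to 300 counts at 1 h against 0.07 from 1000 to 3000.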
